A study of Mus musculus with 103 samples.

Results

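The 2 arrays labelled mouse heart were compared with the 2 arrays labelled mouse liver, 4 of the 103 arrays of a series that assessed a labelling method for very small amounts of RNA. Members were chosen by their titles and paired by labelling protocol. Per the labels, all 4 held total RNA drawn from a commercial mouse tissue panel (Ambion), with no strain, age, sex, treatment or animal number given. In each pair, 1 ug was labelled as biotinylated cRNA with the standard Affymetrix one-cycle kit, and 500 pg was labelled as biotinylated cDNA with the BIIB protocol, an amplification method of Biogen Idec. No label gives separate animals or extracts for the arrays, and the p-values below therefore rest on a spread that may be purely technical. Each array carried 22690 probe sets, and its values were MAS5 signals, a brightness per probe set on a linear scale. Below, pairs of signals are given with the one-cycle array first and the BIIB array second.

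The label liver went against the transcripts on both arrays that carried it. The 20 liver genes of a marker list summed to 4665 and 4838 on these arrays, against 4180259 and 6808335 on the arrays labelled brain and at least 23024 and 38425 on the arrays of the other 5 labelled tissues. Albumin (Alb), the main plasma protein made by liver, measured 65.2 and 378 on the arrays labelled liver. The 28 synaptic vesicle genes of a second list summed to 580854 and 652731 there, while the highest sum among the 5 other labelled tissues was 35638 and 20510 and the arrays labelled brain gave 9318 and 4640. These arrays therefore carried transcripts of neurons and glia at high signal and liver transcripts near background, and they are called the arrays labelled liver throughout. The arrays labelled heart held the markers of heart muscle at high signal, as given below. In tissue RNA, fewer cells of a type and less RNA per cell cannot be told apart.

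Heart muscle and brain are both electrically excitable, and both use calcium as the trigger of their output. In a heart muscle cell, calcium released from the sarcoplasmic reticulum through the ryanodine receptor lets myosin pull on actin within the sarcomere, and fatty acids burnt in mitochondria pay for most of the work. In a neuron, calcium entering the axon terminal makes SNARE proteins fuse transmitter vesicles with the membrane, and glia supply myelin, take up transmitter and buffer potassium.

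Of 13969 probe sets with a mean signal of at least 500 over the 4 arrays, 2365 (16.9%) were higher and 2689 (19.2%) were lower in heart. A call required 2-fold or more and a Benjamini-Hochberg adjusted p below 0.05 from limma. Differences are heart minus arrays labelled liver on the scale of log2(signal + pseudocount), the pseudocount being 5% of the common trimmed mean, with the standard error (SE) of the fit and n = 2 arrays per group; this scale understates the change of dim genes. The median over all tested probe sets was -0.07. Because a gene dim in one group passed the filter through the group in which it was bright, counts of list members are descriptions to be read against these percentages. Together, the members of 57 gene lists and 32 pairs and the largest calls outside them made 672 tested genes, of which 290 were higher and 231 were lower in heart.

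The difference was measured once in each protocol. Of 483 probe sets at least 8-fold higher in heart by the one-cycle protocol, 99.2% were also higher by the BIIB protocol, and of 758 at least 8-fold lower, 98.8% were also lower. By BIIB, 96.9% of the former were at least 2-fold higher, against 21.6% of all tested probe sets. Of the latter, 96.7% were at least 2-fold lower, against 28% of all tested probe sets. Across tested probe sets, which are not independent replicates, the differences of both protocols had a Pearson r of 0.828. None of the 5054 called probe sets had opposite signs in the protocols. In 4415 of them the heart arrays did not overlap with the arrays labelled liver. A call rests on the mean difference of both protocols and on the residual spread. Both counts therefore follow in large part from the rule for a call, and the share without overlap over all tested probe sets is not given. The protocols differed in how far they reached from the 3' end: the ratio of 3' to 5' actin signal was 1.511 in heart and 1.503 in the arrays labelled liver by one-cycle, and 11.68 and 22.05 by BIIB. The part of that ratio in single genes was not tested. Without the protocol as a term, the calls of Camk2a, Cldn5, Cox6a1, Gad2, Hadha, Jph2, Kcnk3, Mki67, Nkx2-5, Pgam1, Pomc, Rab3a, Tnnt1 and Unc13a, all named below, were lost.

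**Figure D1:**
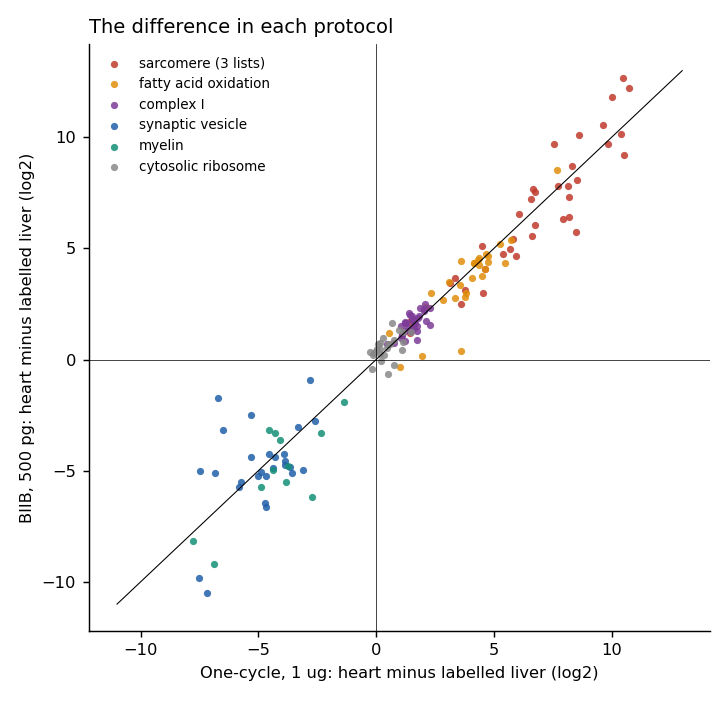
Each point is a tested gene of a named list, with its heart minus labelled liver difference on the log2(signal + pseudocount) scale by the one-cycle protocol on the x axis and by the BIIB protocol on the y axis; the diagonal marks equal differences. Sarcomere genes lie at the upper right, synaptic vesicle and myelin genes at the lower left, and cytosolic ribosome genes near 0.

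Genes of the thick filament had the largest median of the 57 lists. Of 11 listed genes, 10 were on the array and tested, and 10 were higher in heart, with a median of 8.05. Myh6, the fast myosin heavy chain of the adult mouse heart, measured 235586 and 973693 in heart and 39.0 and 23.5 in the arrays labelled liver, a difference of 11.58 (SE 0.99, adjusted p = 4.6e-06). Myl3, the ventricular essential light chain, measured 282080 and 646041 in heart and 38.7 and 12.6 in the arrays labelled liver, a difference of 11.47 (SE 0.60, adjusted p = 2.2e-07). Both heart arrays were far above both others for each gene. Ttn, the giant spring that holds myosin between the Z discs, measured 52762 and 36581 against 15.7 and 9.8, a difference of 8.32 (SE 0.29, adjusted p = 2e-08). Myh7, the slow heavy chain, measured 71816 and 156921 against 1257 and 4910, a smaller difference of 5.33 (SE 0.65). The regulatory light chains of the ventricle (Myl2, 9.87) and of the atrium (Myl7, 8.50) were both higher, so transcripts typical of both kinds of chamber were present in the heart RNA.

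Thin filament and Z disc genes followed. In the thin filament, 10 of 11 tested genes were higher, with a median of 6.90. Actc1, cardiac actin, measured 325142 and 486188 in heart and 189 and 9.6 in the arrays labelled liver, a difference of 10.92 (SE 0.50). Tnni3, the inhibitory cardiac troponin, measured 205532 and 184174 against 28.4 and 37.5, a difference of 10.27 (SE 0.44). Tnnt1, the slow skeletal troponin T, was also higher, by a smaller 1.54 (SE 0.50, adjusted p = 0.03), a call lost without either heart array and without the BIIB array labelled liver, and Nebl missed the threshold at 1.32 (SE 0.64, adjusted p = 0.12). At the Z disc, 15 of 15 tested genes were higher, with a median of 6.39. Myoz2, a calcineurin-binding Z disc protein, measured 127410 and 420756 against 37.3 and 157, a difference of 10.08 (SE 0.83). Ankrd1, a stretch-responsive protein, differed by 9.76 (SE 0.32) and Csrp3, a muscle LIM protein, by 8.62 (SE 0.46). The small heat shock protein Cryab, a chaperone of desmin that glia also express, had one of the smaller differences, with 104320 and 67816 in heart, 7597 and 7518 in the arrays labelled liver and a difference of 3.45 (SE 0.59).

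**Figure D2:**
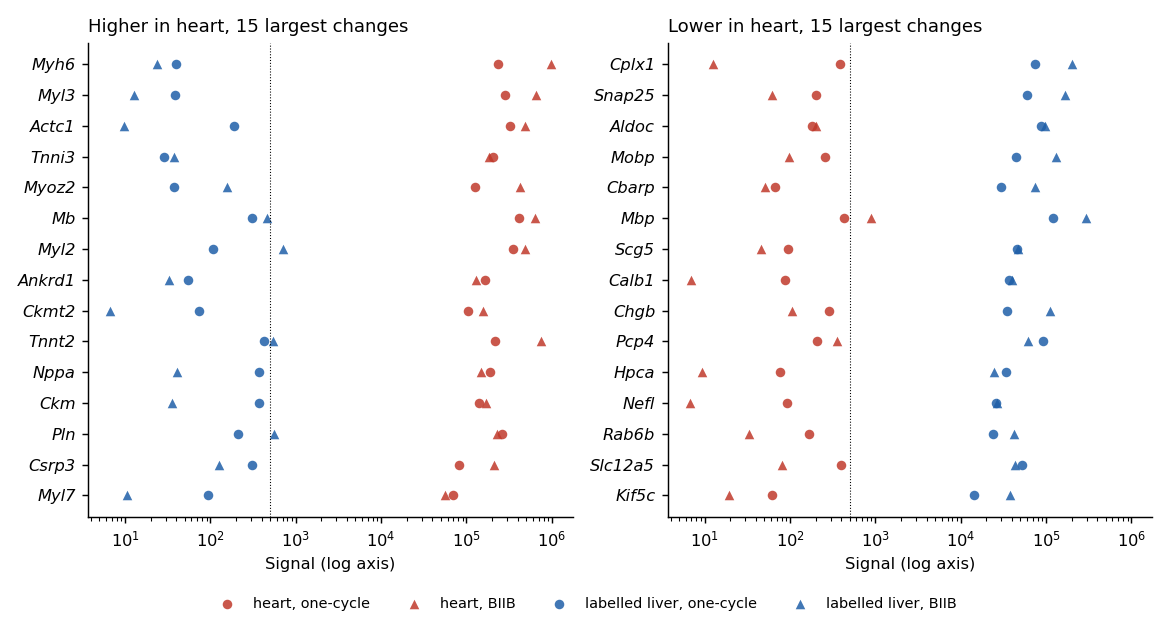
Signal on a log axis in each of the 4 arrays for the 15 genes with the largest difference in each direction; red is heart, blue the arrays labelled liver, circles one-cycle and triangles BIIB, and the dotted line marks a signal of 500. For each gene shown the heart arrays and the arrays labelled liver do not overlap.

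Promoters were searched for the elements known to drive muscle and neuronal genes, in RefSeq windows of 300 bases (250 before and 50 after the start) on GRCm38.p6, on both strands. The 15 genes with the largest increase had 20 such promoters. A CArG box, the element bound by serum response factor, was found in those of 3 genes, which are shown because their transcripts are among the most changed in heart. The capitals mark the CArG box, whose first base lies at -85 from the start in Myl3, -47 in Actc1 and -61 in Myl7. The windows are chr9:110763428-110763727 on the plus strand, chr2:114052826-114053125 on the minus strand and chr11:5898733-5899032 on the minus strand.
Myl3: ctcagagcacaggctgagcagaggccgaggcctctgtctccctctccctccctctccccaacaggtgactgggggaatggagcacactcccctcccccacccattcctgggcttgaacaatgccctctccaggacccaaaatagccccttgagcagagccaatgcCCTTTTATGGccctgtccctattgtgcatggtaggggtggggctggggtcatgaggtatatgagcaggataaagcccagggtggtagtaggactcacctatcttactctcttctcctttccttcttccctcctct
Actc1: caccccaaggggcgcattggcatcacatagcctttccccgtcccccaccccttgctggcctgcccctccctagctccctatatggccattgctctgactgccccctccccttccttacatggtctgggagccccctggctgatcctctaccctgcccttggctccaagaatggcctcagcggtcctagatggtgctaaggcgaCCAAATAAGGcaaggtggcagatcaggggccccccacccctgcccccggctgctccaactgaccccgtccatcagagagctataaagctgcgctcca
Myl7: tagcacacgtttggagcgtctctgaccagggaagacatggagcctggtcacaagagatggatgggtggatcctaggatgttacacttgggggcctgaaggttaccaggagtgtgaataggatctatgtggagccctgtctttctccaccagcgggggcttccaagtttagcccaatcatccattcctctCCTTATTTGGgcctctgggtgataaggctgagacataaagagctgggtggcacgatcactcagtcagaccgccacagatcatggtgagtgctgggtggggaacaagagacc
A CArG box stood in 1.63% of all 32851 RefSeq promoters, in 1.42% of the 8875 promoters of tested genes, in 2.42% of those of genes called higher in heart and in 1.67% of those called lower. An element of the MEF2 type stood in 3.19% of all promoters, 1.68% of tested promoters, 2.89% of those called higher and 1.76% of those called lower. TATAAA stood in 13.6%, 7.61%, 10.8% and 7.23%, in the same order, so that for both elements the share over all promoters was above that of genes called higher. A match is a description of letters in this window and not a binding site.

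Calcium handling genes were read as a muscle list and a neuronal list. Of 15 tested genes of the sarcoplasmic reticulum and its regulators, 12 were higher in heart and 1 was lower, with a median of 3.50. Pln, phospholamban, the brake on the calcium pump, measured 261783 and 228795 in heart and 212 and 553 in the arrays labelled liver, 512-fold higher on the pseudocount scale. Hrc, a calcium-binding protein of the reticulum, differed by 7.25 (SE 0.50), and Trdn, which anchors the release complex, by 6.82 (SE 0.97). The release channel and the pump were not confined to heart. Ryr2, the release channel, measured 31976 and 28186 in heart and 2497 and 2592 in the arrays labelled liver, a difference of 3.50 (SE 0.40, adjusted p = 4.1e-05). Atp2a2, the SERCA2 pump, measured 222221 and 452065 against 54943 and 85771, a difference of 2.20 (SE 0.45, adjusted p = 0.0023). Fkbp1b, the small protein that binds Ryr2, went the other way, with 42.2 and 128 in heart, 2942 and 6284 in the arrays labelled liver and a difference of -4.43 (SE 0.42, adjusted p = 1.1e-05).

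Of 14 tested calcium sensors, buffers and kinases typical of neurons, 12 were lower in heart, with a median of -5.51. Calb1, the calcium buffer calbindin, measured 86.7 and 6.9 in heart and 36583 and 39880 in the arrays labelled liver, a difference of -7.84 (SE 0.35). It was also bright under the label kidney, at 33252 and 24596. Pcp4, a calmodulin regulator abundant in Purkinje cells, differed by -7.55 (SE 0.52), Hpca, the sensor hippocalcin, by -7.47 (SE 0.46), and Atp2b2, a plasma membrane calcium pump, by -6.02 (SE 0.35). Not called were Camk4, at -1.20 (SE 0.72), and the calcineurin subunit Ppp3cb, at -0.90 (SE 0.67). Camk2a, a kinase abundant in forebrain synapses, gave 75.8 and 459 in heart and 1575 and 471 in the arrays labelled liver, so that its BIIB arrays were nearly equal while the fit gave -1.55 (SE 0.55, adjusted p = 0.044), a call lost without the one-cycle heart array (-0.55).

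Ion channels divided by family and by member. All 4 tested sodium channel subunits were lower in heart. Scn1a, a pore subunit of neurons, measured 41.0 and 96.0 in heart and 7094 and 7221 in the arrays labelled liver, a difference of -5.25 (SE 0.40), and Scn8a differed by -5.23 (SE 0.54). Of 14 tested calcium channel subunits, 1 was higher and 8 were lower. The higher one was Cacna1c, the pore of the L-type channel that starts each heartbeat's calcium release, with 6013 and 3655 in heart, 635 and 897 in the arrays labelled liver and a difference of 2.45 (SE 0.50, adjusted p = 0.0024). The count of 8 lower fell to 2 when the signal filter was taken over all 16 tissue arrays, which tests fewer of these genes. Of 31 tested potassium channel subunits, 3 were higher and 19 were lower, with a median of -1.78, and the 19 became 12 without the protocol term in the fit. Without the one-cycle array labelled liver, 5 were higher. Kcnk3, a background channel, measured 9650 and 21408 in heart against 600 and 2916, a difference of 3.29 (SE 0.40). Kcnq1, the pore of the slow repolarising current, differed by 3.15 (SE 0.57), and Kcnj8, of the ATP-sensitive channel of vessels and heart, by 2.90 (SE 0.50). The lower channel genes included Kcnab1, a cytosolic subunit (-5.28, SE 0.47), and Kcnj10, the glial inward rectifier (-4.27, SE 0.68).

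Gap junctions and the sodium pump gave mixed results. Gja1, connexin 43, which couples ventricular muscle cells and also astrocytes, measured 29017 and 31373 in heart and 24282 and 20431 in the arrays labelled liver and was not called (0.44, SE 0.34, adjusted p = 0.34). Gjb6, an astrocyte connexin, was lower by -3.98 (SE 0.53). Among pump subunits, Fxyd1, phospholemman, was higher by 2.58 (SE 0.40), while Atp1b2, the glial beta subunit, was lower by -4.17 (SE 0.60) and the neuronal regulator Fxyd7 by -4.51 (SE 0.44). Of 7 tested pump genes, 4 were lower, and this number was 2 without the protocol term and without any of 3 single arrays: either heart array, or the BIIB array labelled liver.

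Of 5 tested genes of the natriuretic peptide system, 3 were higher. Nppa, the atrial natriuretic peptide, measured 187448 and 146185 in heart and 372 and 40.4 in the arrays labelled liver, a difference of 9.17 (SE 0.50). Nppb, the B-type peptide, differed by 7.26 (SE 0.56), and Corin, the protease that processes the precursor of atrial natriuretic peptide, by 4.68 (SE 0.56). The receptors Npr2 (0.94, SE 0.36) and Npr3 (0.38, SE 0.61) were not called. Mb, myoglobin, the oxygen store of muscle, measured 414415 and 636904 against 304 and 456, a difference of 10.01 (SE 0.42). Of 14 tested heart transcription factors and their partners, 9 were higher and 1 was lower. Gata4 measured 4823 and 2217 in heart and 223 and 7.3 in the arrays labelled liver, a difference of 3.99 (SE 0.51), and Nkx2-5 measured 5553 and 1339 against 309 and 47.5, a difference of 3.40 (SE 0.34). Mef2c, which serves both heart and cortical neurons, was lower, with 4946 and 5045 in heart, 16663 and 23039 in the arrays labelled liver and a difference of -1.95 (SE 0.30, adjusted p = 0.00038). Of 13 tested neural factors, 11 were lower, Mef2c among them, and this number was 6 with the filter over 16 arrays, and 7 without the one-cycle array labelled liver or with a mean signal of at least 1000 required. Olig1, of the oligodendrocyte line, was lower by -6.35 (SE 0.40) and Neurod1 by -5.30 (SE 0.45).

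Fuel use was a broad and graded difference. Of 28 tested genes of fatty acid uptake and oxidation, 25 were higher in heart and 0 were lower, with a median of 4.07. Cd36, the fatty acid transporter of the cell membrane, measured 61451 and 51854 in heart and 174 and 16.5 in the arrays labelled liver, a difference of 8.10 (SE 0.33, adjusted p = 4.7e-08). Pdk4, the kinase that turns pyruvate dehydrogenase off, measured 42157 and 51955 against 676 and 1129, a difference of 5.55 (SE 0.47). Lpl, the lipase that frees fatty acids from lipoproteins, measured 184774 and 335413 against 4665 and 9063, a difference of 5.23 (SE 0.33). These are entry and control steps, and the enzymes of beta oxidation were higher as well: Acadl, a long-chain dehydrogenase, by 4.70 (SE 0.30), Cpt2, of the carnitine shuttle, by 4.36 (SE 0.39), and Hadha, of the trifunctional protein, by 3.30 (SE 0.42). Not called were Cpt1a (0.89, SE 0.30), the liver form of the shuttle's first enzyme, Mlycd (1.08, SE 0.53) and Slc27a1 (0.36, SE 0.45).

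Mitochondrial genes used by both tissues differed less. Of 25 tested genes of pyruvate entry and the citric acid cycle, 22 were higher, with a median of 1.77. Idh2, the NADP-linked isocitrate dehydrogenase, stood out from the other members, with 112424 and 256015 in heart against 3012 and 12420 and a difference of 4.76 (SE 0.29). Idh3b, of the NAD-linked enzyme, gave 26146 and 39301 against 26005 and 37870, a difference of 0.03 (SE 0.28). In the respiratory chain, 32 of 34 tested genes of complex I were higher (median 1.60), 10 of 10 of complex III with cytochrome c (median 1.95), 8 of 13 of complex IV with 1 lower (median 1.33), and 14 of 17 of ATP synthase with the nucleotide carriers (median 1.61). Without the protocol term the higher genes numbered 8 in the citric acid cycle and 9, 4, 4 and 6 in complexes I, III, IV and V. With quantile normalization 5 were higher in complex IV. Among regulators of mitochondrial genes, 4 of 9 were higher. This number was 1 without the protocol term, and 2 with the 4 arrays alone and without any of 3 single arrays: either heart array, or the BIIB array labelled liver. Ppara, the fatty acid receptor that turns on oxidation genes, was higher by 3.84 (SE 0.57), and Ppargc1a, the coactivator PGC-1alpha, gave 11453 and 5971 in heart and 6846 and 4764 in the arrays labelled liver and was not called (0.53, SE 0.65).

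**Figure D3:**
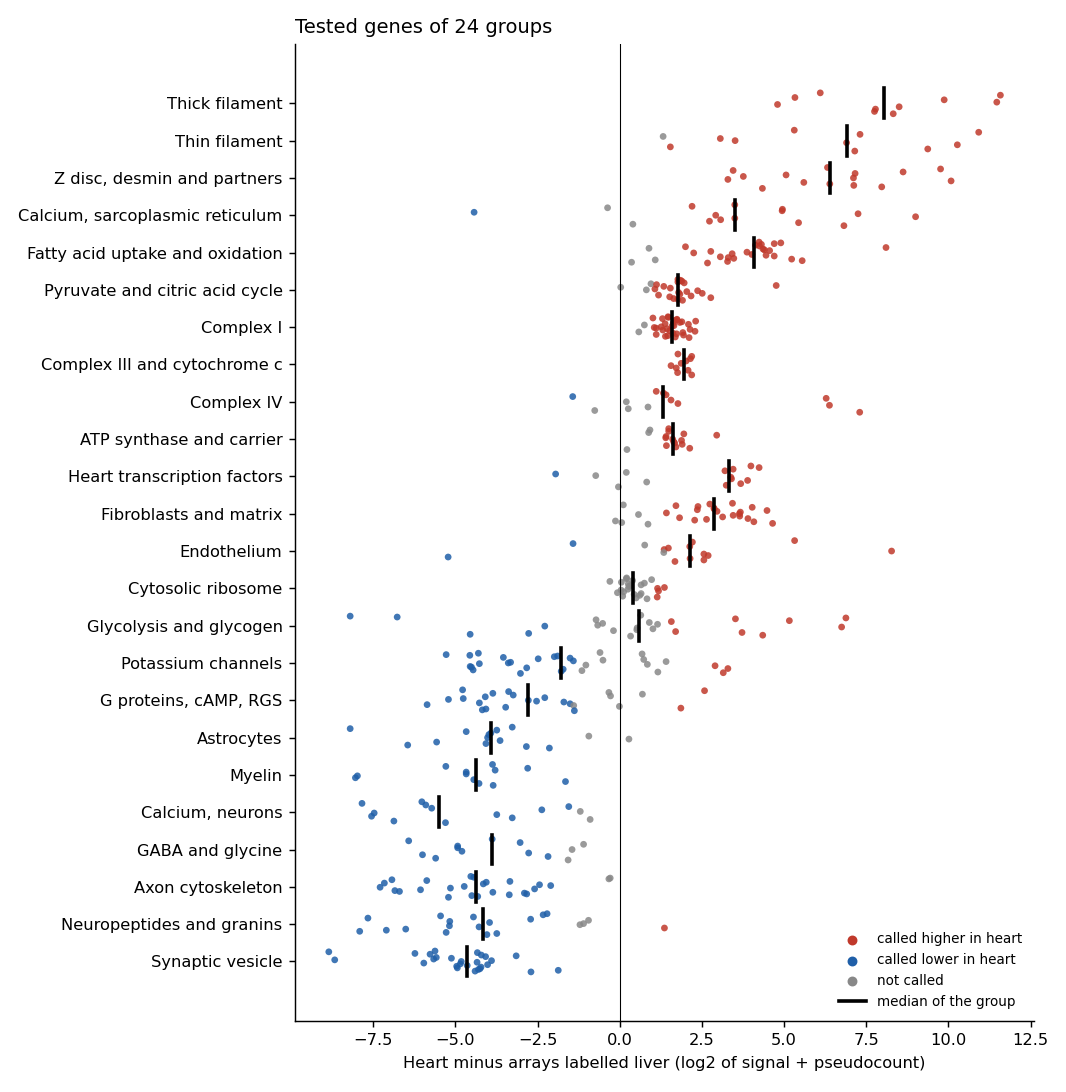
Each point is a tested gene, placed by its heart minus labelled liver difference on the log2(signal + pseudocount) scale; rows are gene lists, points are spread vertically within a row for legibility, colours give the call and the bar is the median of the list. Medians run from 8.05 for the thick filament to -5.51 for neuronal calcium genes, and the cytosolic ribosome lies near 0.

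Several enzymes and structural proteins exist as a form typical of striated muscle and a form common to other tissues or typical of brain, and 32 such pairs were compared. Of the 21 with both forms tested, the muscle form was higher and the other lower in 10. The muscle form alone was called, as higher, in 6, the other form alone, as lower, in 2, neither in 1, and both forms were higher in 2. Signals of different probe sets were not set against each other. Ckm, the muscle creatine kinase that rebuilds ATP, measured 141837 and 168678 in heart and 367 and 35.1 in the arrays labelled liver, 551-fold higher. Ckb, the brain form, measured 3436 and 3410 against 64986 and 76320, 19.9-fold lower in heart. The mitochondrial kinases did the same, with Ckmt2 (9.62, SE 0.45) higher and Ckmt1 (-5.36, SE 0.76) lower. Among glycolytic enzymes, Eno3 was higher by 6.88 (SE 0.74) and neuronal Eno2 lower by -6.77 (SE 0.55), Pgam2 higher by 6.75 (SE 0.55) and Pgam1 lower by -2.28 (SE 0.29). Aldoc, the aldolase of astrocytes and Purkinje cells, measured 182 and 201 in heart against 88216 and 98006, a difference of -8.20 (SE 0.50), whereas Aldoa was not called (0.64, SE 0.29). Transporters and binding proteins showed the same division, with insulin-responsive Slc2a4 higher (4.35, SE 0.41) and neuronal Slc2a3 lower (-4.55, SE 0.88), and heart Fabp3 higher (4.70, SE 0.46) and brain Fabp7 lower (-4.67, SE 0.37). Hk2 was higher by 5.16 (SE 0.57), and Hk1, the form bound to mitochondria in brain, was not called (-0.72, SE 0.43). Both forms were higher for glycogen phosphorylase, with muscle Pygm at 3.72 (SE 0.54) and brain Pygb at 1.70 (SE 0.42, adjusted p = 0.0074, lost without the one-cycle heart array), and for the PDZ-LIM proteins, with Ldb3 at 7.11 (SE 0.73) and Pdlim1 at 2.69 (SE 0.45).

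Cytochrome c oxidase has 3 subunits with a form for heart and skeletal muscle. Cox6a2 measured 158978 and 59206 in heart and 858 and 1475 in the arrays labelled liver, a difference of 6.28 (SE 0.51). Its common counterpart Cox6a1 measured 45162 and 38867 against 116153 and 109729, a difference of -1.43 (SE 0.34, adjusted p = 0.0062), a call lost without the BIIB array labelled liver and without the protocol term. Cox7a1 was higher by 6.38 (SE 0.34) and Cox8b by 7.30 (SE 0.67), while the common forms Cox7a2 (0.86, SE 0.29) and Cox8a (-0.76, SE 0.35) were not called. The junctophilins, which hold the cell membrane against the calcium store, also divided, with Jph2 at 2.92 (SE 0.67) and neuronal Jph3 at -4.39 (SE 0.40). Neither phosphofructokinase of the pairs was called (Pfkm 1.15, SE 0.55, and Pfkp -0.67, SE 0.47). Of 24 tested genes of glycolysis and glycogen as a whole, 8 were higher and 5 lower.

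**Figure D4:**
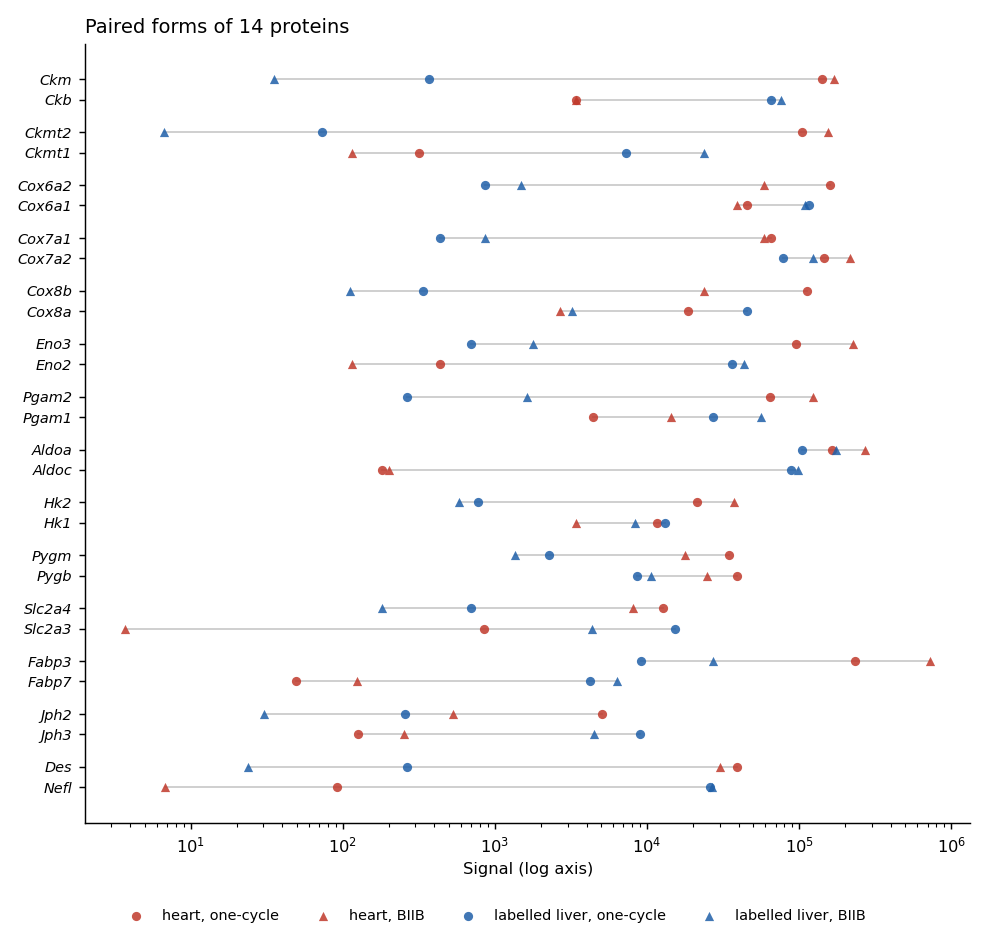
Signal on a log axis in each of the 4 arrays for 14 pairs of related proteins, the muscle or heart form above the other; red is heart, blue the arrays labelled liver, circles one-cycle and triangles BIIB, and a line joins the lowest and highest array. In the creatine kinase, enolase and intermediate filament pairs the upper gene is high in both heart arrays and the lower gene in both arrays labelled liver.

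The 2 largest decreases were those of synaptic genes. All 27 tested synaptic vesicle genes were lower in heart, with a median of -4.64. Cplx1, complexin, which clamps and triggers vesicle fusion, measured 384 and 12.5 in heart and 74010 and 200201 in the arrays labelled liver, a difference of -8.85 (SE 0.87, adjusted p = 1.3e-05). Snap25, a SNARE of the terminal membrane, measured 199 and 61.2 against 59501 and 168374, a difference of -8.67 (SE 0.61, adjusted p = 1.2e-06). Both arrays labelled liver lay far above both heart arrays for each gene. Syn1, synapsin, which tethers vesicles, was lower by -5.96 (SE 0.45), and the smallest called difference was that of the priming factor Unc13a (-1.87, SE 0.64), lost without either heart array. Transporters that load glutamate (Slc17a6, -5.12, SE 0.43) and GABA (Slc32a1, -5.66, SE 0.67) into vesicles were both lower.

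Most tested receptors and their scaffolds were lower too. Of 6 tested glutamate receptor subunits 5 were lower, of 13 GABA and glycine genes 10, and of 11 postsynaptic genes 9. Gria2, the AMPA receptor subunit that blocks calcium, measured 122 and 233 in heart and 12166 and 26432 in the arrays labelled liver, a difference of -5.93 (SE 0.50). Gabbr1, of the metabotropic GABA receptor, was lower by -6.42 (SE 0.42) and Gad1, which makes GABA, by -6.00 (SE 0.55). Homer1, a scaffold also present in muscle, measured 1622 and 2954 in heart and 1514 and 3432 in the arrays labelled liver and was not called (-0.06, SE 0.55), nor was Homer2 (1.02, SE 0.90). The GABA and postsynaptic counts kept within 1.5 times under every alternative run here, and the glutamate receptor count was 3 with the filter over 16 arrays. The 3 counts do not include dim members, of which 7, 2 and 1 on the array were not tested. Of 25 tested G protein and cyclic AMP genes, 18 were lower and 2 were higher (1 without the protocol term). The regulatory kinase subunit Prkar1b (-5.86, SE 0.52) and Gng3 (-5.21, SE 0.84) led the lower ones. Adcy6, a main adenylyl cyclase of heart, was higher, with 6903 and 9080 against 752 and 1951 and a difference of 2.58 (SE 0.36).

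The RE1 element, bound by the repressor REST that keeps neuronal genes silent elsewhere, was searched by its core, AGCACC and GGACAG with any 2 bases between them, on both strands. It stood in 17 of all 32851 promoters (0.0517%) and in 5 of the 8875 promoters of tested genes (0.0563%). The 5 belonged to Gad2, Gria2, Hrh3, Scamp5 and Sptbn4, and each of these genes was called lower in heart. Of the 8875 promoters, 2102 belonged to genes called lower. Gria2, Hrh3, Scamp5 and Sptbn4 were dim in heart and passed the filter through the arrays labelled liver, which favoured a call of lower. The other promoters with the core were not those of tested genes. They are shown as windows of 30 bases with the core in capitals. Hrh3, Scamp5 and Sptbn4 are in no list and are named after their values were seen. The windows are chr2:22622156-22622185 (plus), chr3:80802984-80803013 (plus), chr2:180104569-180104598 (plus), chr9:57468190-57468219 (minus) and chr7:27396275-27396304 (plus) on GRCm38.p6, in the same order.
Gad2: gctgtggtAGCACCCTGGACAGcgcgttcc
Gria2: tcgattttAGCACCGCGGACAGcgctttgg
Hrh3: gcgcgggcAGCACCACGGACAGcgccgcgt
Scamp5: gaatatttAGCACCACGGACAGctcctgca
Sptbn4: gcggctccAGCACCACGGACAGttcccggt
Gad2, the second enzyme of GABA synthesis, measured 634 and 514 in heart and 3335 and 2750 in the arrays labelled liver (-2.18, SE 0.53), a call lost without the one-cycle heart array and without the BIIB array labelled liver. Hrh3, a histamine receptor of nerve endings, measured 407 and 54.2 against 2354 and 772 (-2.27, SE 0.70). Scamp5, a carrier membrane protein of synaptic vesicles, measured 896 and 44.5 against 11256 and 4952 (-4.19, SE 0.43). Sptbn4, the spectrin of axon initial segments, measured 302 and 33.2 against 2782 and 1199 (-2.92, SE 0.41). With 5 promoters, the match describes these genes and no more.

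Axonal and secretory genes completed the neuronal set. Of 26 tested genes of the axon cytoskeleton, 24 were lower, with a median of -4.38. Nefl, the light neurofilament, measured 92.1 and 6.8 in heart and 25968 and 26608 in the arrays labelled liver, a difference of -7.29 (SE 0.40). Kif5c, a kinesin motor, differed by -7.16 (SE 0.76) and Gap43, a growth cone protein, by -6.93 (SE 0.57). Of 20 tested neuropeptide and granin genes, 16 were lower and 1 was higher. Scg5, a chaperone of the peptide-processing enzyme, measured 94.0 and 46.1 against 45661 and 47046, a difference of -7.91 (SE 0.40), and Chgb, a granin of dense-core vesicles, 284 and 105 against 34704 and 110291, a difference of -7.66 (SE 0.54). The higher one was Pomc, at 1151 and 395 in heart against 605 and 13.8, groups that overlap, and its call (1.36, SE 0.43, adjusted p = 0.026) was lost without the BIIB heart array and without the BIIB array labelled liver, and the gene did not pass the filter without the one-cycle heart array.

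Of the 15 genes with the largest decrease, 11 had RefSeq promoters (16 in all), and those of 2 genes held the cyclic AMP response element TGACGTCA, shown in capitals and starting at -72 in Chgb (chr2:132781392-132781691, plus strand) and -26 in Kif5c (chr2:49619036-49619335, plus strand).
Chgb: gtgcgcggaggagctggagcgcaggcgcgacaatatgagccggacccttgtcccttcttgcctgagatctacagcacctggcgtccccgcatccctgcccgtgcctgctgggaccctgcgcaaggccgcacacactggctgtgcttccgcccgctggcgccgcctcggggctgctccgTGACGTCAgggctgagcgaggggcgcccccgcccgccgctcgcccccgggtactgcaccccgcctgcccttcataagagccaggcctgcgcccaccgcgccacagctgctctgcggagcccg
Kif5c: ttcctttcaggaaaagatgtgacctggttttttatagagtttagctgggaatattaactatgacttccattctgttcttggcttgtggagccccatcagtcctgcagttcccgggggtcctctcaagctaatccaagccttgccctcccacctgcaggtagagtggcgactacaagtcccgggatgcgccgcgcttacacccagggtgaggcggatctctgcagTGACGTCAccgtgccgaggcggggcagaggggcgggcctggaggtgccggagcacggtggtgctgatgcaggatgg
TGACGTCA stood in 1.79% of all promoters, in 2.87% of those of tested genes, in 3.24% of those of genes called lower in heart and in 2.01% of those called higher.

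Myelin genes and most astrocyte genes were also lower. All 12 tested myelin genes were lower, with a median of -4.36. Mbp, myelin basic protein, measured 434 and 890 in heart and 121927 and 294770 in the arrays labelled liver, a difference of -7.98 (SE 0.50), and Mobp, another oligodendrocyte myelin protein, 254 and 98.3 against 44470 and 131412, a difference of -8.04 (SE 0.65). Of 15 tested astrocyte genes 13 were lower, among them the glutamate transporter Slc1a3 (-6.45, SE 0.49), the calcium-binding S100b (-5.57, SE 0.35) and the filament Gfap (-3.92, SE 0.58). Glul, glutamine synthetase (-0.94, SE 0.40), and Ndrg2 (0.28, SE 0.30) were not called. Ttr, transthyretin, made by the choroid plexus and also by liver, measured 2829 and 3692 in heart and 145940 and 191504 in the arrays labelled liver, a difference of -5.64 (SE 0.43).

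Other cell types of the tissues were compared through their markers. Of 27 tested genes of fibroblasts and matrix, 22 were higher in heart and 0 lower, with a median of 2.87. Postn, a matrix protein of fibroblasts, measured 9527 and 8694 in heart against 286 and 596 (4.08, SE 0.46), and Col3a1, a fibrillar collagen, 42671 and 24451 against 1597 and 2153 (4.03, SE 0.36). Sparc measured 51488 and 34001 against 46368 and 34849 and was not called (0.06, SE 0.30). Of 15 tested endothelial genes, 11 were higher and 2 lower, and without the protocol term 4 were higher. Fabp4, a fatty acid carrier of capillary endothelium and fat cells, measured 61742 and 70693 against 112 and 70.6 (8.27, SE 0.31), and the water channel Aqp1 was higher by 5.32 (SE 0.35). The lower endothelial genes were Slco1c1, the thyroid hormone transporter of the blood-brain barrier (-5.22, SE 0.52), and Cldn5, its tight junction claudin (-1.42, SE 0.48, adjusted p = 0.036), a call lost without the BIIB heart array and without either array labelled liver. Of 8 tested mural genes 5 were higher (3 without the protocol term). The largest of these differences was that of Des, desmin (7.16, SE 0.52), which is also counted in the Z disc list. Mylk (0.82, SE 0.30), Pdgfrb (0.94, SE 0.31) and Cspg4 (0.53, SE 0.47) were not called. Of 12 tested microglia and macrophage genes 4 were higher. That number was 1 without the protocol term and 2 without any of 3 single arrays: either heart array, or the BIIB array labelled liver. Lyz2, lysozyme of macrophages, was higher by 3.87 (SE 0.31), and Cx3cr1, a receptor of microglia, gave 1629 and 1041 in heart and 3799 and 2409 in the arrays labelled liver (-1.14, SE 0.47, adjusted p = 0.076).

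Genes of other tissues were also read in heart, where their signals ran from dim to well above the array median (844.5 and 493.9). Of 20 liver genes on the array, 10 passed the filter and 8 were higher in heart than in the arrays labelled liver, although the sum of the list in heart was 26617 and 40023 against 4180259 and 6808335 on the arrays labelled brain. Alb measured 9878 and 17549 in heart, and the difference was 5.42 (SE 0.69). The count of 8 was 3 without the BIIB heart array or with a mean signal of at least 1000 required, 4 without the one-cycle heart array and 5 without the protocol term. Alas2, of haem synthesis in red cell precursors, was higher by 3.73 (SE 0.71), and 5 of 5 tested lymphocyte genes were higher at low signal, a number that was 1 without the protocol term or with a mean signal of at least 1000 required, and 2 or 3 without any single array. Adipoq, the fat cell hormone, measured 2851 and 592 in heart and 9.3 and 32.7 in the arrays labelled liver (3.33, SE 0.47). Of 11 skeletal muscle genes on the array, 9 were too dim to be tested, Myl1 was higher (5.88, SE 0.41), and parvalbumin (Pvalb), which is shared with interneurons, was lower (-6.87, SE 0.37). None of the 5 lung epithelium or 9 kidney genes on the array passed the filter, with list sums in heart of 1167 and 311 for lung and 2372 and 1332 for kidney. The part of these transcripts in other differences was not tested.

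Cytosolic ribosomal proteins and common reference genes were used to look at general cell functions. Of 25 tested cytosolic ribosomal proteins, 4 were higher and 0 lower, with a median of 0.39, and 0 were called without the protocol term, 1 with quantile normalization or the 4 arrays alone, and 1 or 2 without a single array. Rpl13a measured 71689 and 91897 in heart and 70812 and 89784 in the arrays labelled liver (0.03, SE 0.28). Ywhaz, often used as a reference gene, was lower by -2.22 (SE 0.28), and B2m was higher by 1.82 (SE 0.29). Of 18 tested immediate early and stress genes, 8 were higher and 3 lower. Without the BIIB heart array or the BIIB array labelled liver 5 were higher, and without the protocol term 4 were higher and 1 lower. Egr1, a factor switched on by neuronal activity, measured 2371 and 1049 in heart and 17089 and 8463 in the arrays labelled liver (-2.83, SE 0.35), while the matricellular Ccn2 was higher by 2.93 (SE 0.34). Of 6 tested cell cycle genes 5 were higher at low signal, Mki67 with 1163 and 6255 against 308 and 224 (2.88, SE 0.57), and this count was 1 without the BIIB heart array, 3 without the one-cycle heart array, and 2 without the BIIB array labelled liver, without the protocol term or with a mean signal of at least 1000 required.

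The largest increase outside the lists was that of Txlnb, a taxilin of muscle, which measured 7960 and 58155 in heart against 12.9 and 16.4 (7.28, SE 0.93). Rpl3l, the striated muscle form of a ribosomal protein, measured 21304 and 25961 against 22.9 and 59.7 (7.16, SE 0.64), while the ribosomal list as a whole stayed near 0. Apobec2, a muscle member of the deaminase family, measured 32582 and 41970 against 118 and 200 (7.04, SE 0.36). Others in the first 15 were Trim54, Hspb7, Popdc2, Sgca, Cmya5, Itgb1bp2, Rrad, Art1, Art3, Dpt, Tcea3 and Mov10l1, with differences from 6.87 down to 5.99. Dpt, dermatopontin of the matrix, was as bright in lung (19457 and 14822) as in heart (19180 and 12684). Among the largest decreases outside the lists, Cbarp, a regulator of calcium channels, measured 66.1 and 51.2 in heart against 29847 and 74178 (-8.01, SE 0.61), Rab6b 168 and 32.7 against 23937 and 41648 (-7.20, SE 0.53), and the neuronal chloride exporter Slc12a5 399 and 79.4 against 51650 and 42707 (-7.17, SE 0.56). Nrcam, Gpm6a, Cntn1 and Omg, surface proteins of neurons and glia, Cdk5r1, the activator of a neuronal kinase, and the astrocyte protein Mlc1 followed, together with 6330403K07Rik, Nap1l5, Arpp21, Nrsn1, Itih3 and Zcchc18, between -6.99 and -6.20. Itih3 was brightest on the arrays labelled brain, at 99719 and 129889.

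The 4 arrays were also set together against the 12 arrays of the other 6 labelled tissues, a comparison that shares its 4 arrays with the first. It asks which transcripts heart and the arrays labelled liver have in common. A call needed, within each protocol, both arrays beyond all 6 others. Of 15180 probe sets tested, 239 (1.57%) were higher in both and 183 (1.21%) were lower in both. Eef1a2, the translation elongation factor of muscle and neurons, measured 78729 and 38743 in heart and 71998 and 34345 in the arrays labelled liver, while the highest other label, embryo, gave 10423 and 1957. The difference of both from the other labels was 5.87 (SE 0.32, adjusted p = 4.2e-07), and heart and the arrays labelled liver did not differ beyond their spread (0.15, SE 0.54). Ptgds, a prostaglandin D synthase, measured 63908 and 102892 in heart and 144619 and 232282 in the arrays labelled liver against at most 9284 and 18302 elsewhere (5.75, SE 0.18). Ndrg4, a protein of heart and brain, gave 5.70 (SE 0.27), Rcan2, a calcineurin regulator, 4.49 (SE 0.19), Cap2, an actin regulator, 4.09 (SE 0.30) and Lynx1, a modulator of nicotinic receptors, 4.07 (SE 0.27). The others of the first 10 were Apod (4.89, SE 0.38), Rbfox1, a splicing factor of excitable cells (4.16, SE 0.42), Fgf13, a sodium channel partner (3.81, SE 0.42), and the anion exchanger Slc4a3 (3.81, SE 0.33).

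Of the list members, 21 were higher in both and 3 were lower in both. Over all tested probe sets the shares were 1.57% and 1.21%. The number of list members tested here is not given, so these counts, and that of the glycolysis genes below, only describe single genes. Ryr2 exceeded the other labels by 4.84 (SE 0.23), since the 2497 and 2592 in the arrays labelled liver lay above the highest other array of each protocol, lung at 697 and 1143. Atp2a2 gave 4.27 (SE 0.26), with lung again next at 28932 and 28615. Among channel subunits, Kcnd2, a pore of the transient outward potassium current, gave 3.39 (SE 0.25), Cacna2d1, a calcium channel auxiliary subunit, 3.20 (SE 0.38), and Cacna1c 2.79 (SE 0.29). Of the glycolysis list 5 genes were higher in both: Pfkm (3.49, SE 0.32), Pfkp (2.37, SE 0.28), Pygb, the brain glycogen phosphorylase (2.36, SE 0.24), Pkm, pyruvate kinase (2.02, SE 0.19), and Hk1 (1.47, SE 0.25). Pkm measured 43063 and 38310 in heart and 49306 and 43440 in the arrays labelled liver, above embryo at 24138 and 25154. Homer1 (1.76, SE 0.32), Zfpm2, a partner of GATA factors (1.66, SE 0.25), and Mef2d (1.34, SE 0.26) were also higher in both. Slc25a4, the adenine nucleotide carrier of muscle, heart and brain (2.88, SE 0.20), Atp5h, a subunit of ATP synthase (1.21, SE 0.16), the calcineurin subunit Ppp3cb (1.82, SE 0.39) and the microglial receptor Cx3cr1 (1.71, SE 0.27) were called as well. Without the protocol term, Pfkp, Hk1, Zfpm2, Mef2d, Atp5h and Ppp3cb were no longer called. Higher in both, too, were Gad2 (2.43, SE 0.31), Rab3a, a vesicle GTPase (3.12, SE 0.36), and the astrocyte receptor Ntsr2 (3.86, SE 0.27), although each was lower in heart than in the arrays labelled liver. The same held for Rgs9, a regulator of G protein signalling (1.52, SE 0.28). Its call in both was lost with the larger pseudocount and without the protocol term. These differences do not show the distance to the next label, which was small for some genes. Hk1 measured 11683 and 3386 in heart and 11462 and 3056 in spleen. Cx3cr1 measured 1629 and 1041 in heart and 1558 and 972 in spleen. By one-cycle, heart was also close to the next label for Zfpm2 (1943, ovary 1930), Ppp3cb (3087, embryo 2943) and Rab3a (3860, embryo 3608). By BIIB these last genes gave 579, 1097 and 1239 in heart, against at most 277, 495 and 744 under the other labels. Rgs9 measured 1018 and 368 in heart, against at most 929 and 296 under the other labels. Gad2 was dim in heart, at 634 and 514 where the array medians were 844.5 and 493.9, against at most 466 and 222 under the other labels.

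**Figure D5:**
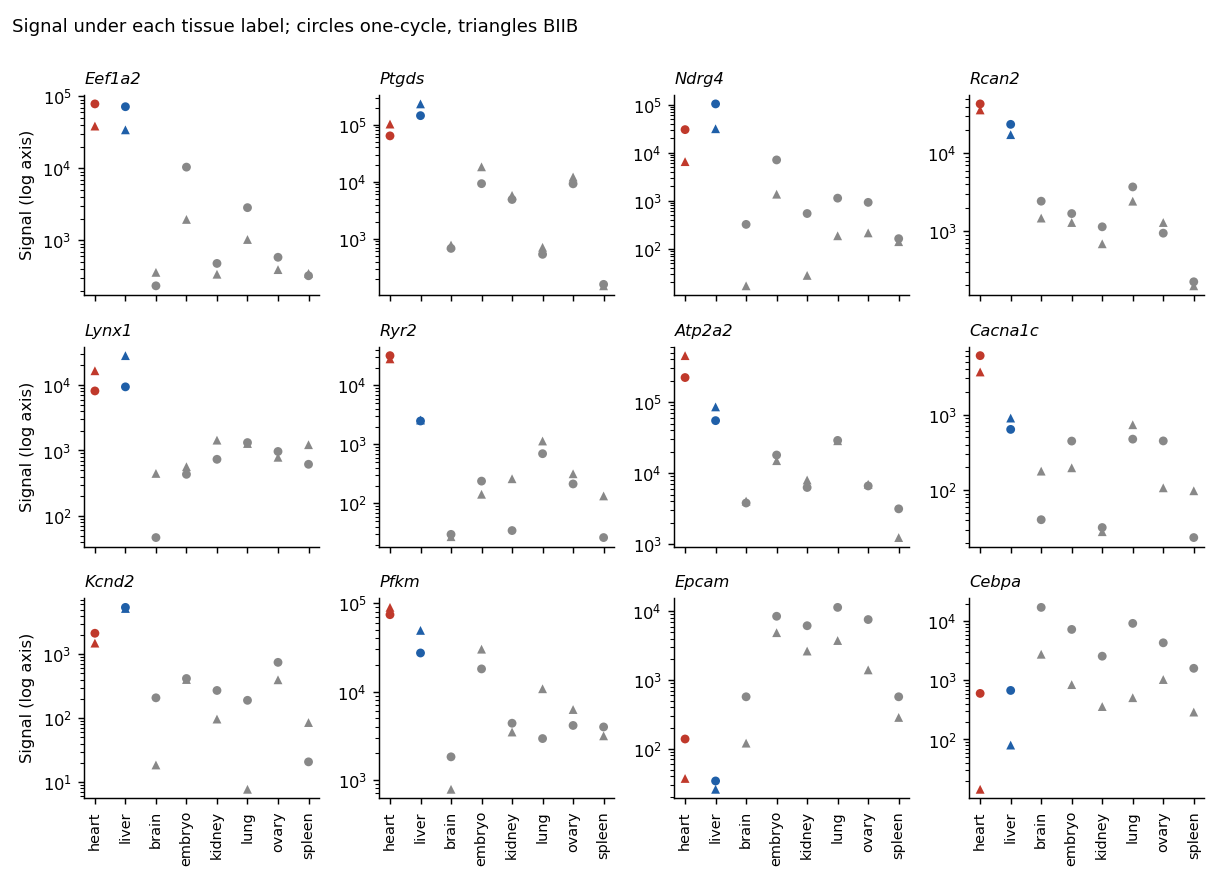
Signal on a log axis under each tissue label for 10 genes higher and 2 genes lower in both heart and the arrays labelled liver than elsewhere; red is heart, blue the label liver, grey the other labels, circles one-cycle and triangles BIIB, with each panel on its own scale. Eef1a2 is alike in heart and the label liver and lower under the other 6 labels, and Epcam is lowest in heart and the label liver within each protocol.

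Genes lower in both included Epcam and St14. Epcam, an adhesion protein of epithelia, measured 139 and 37.1 in heart and 34.1 and 25.8 in the arrays labelled liver, against at least 571 and 121 under the other labels (-3.67, SE 0.26). St14, an epithelial membrane protease, gave -2.43 (SE 0.26) and the zinc transporter Slc39a8 gave -2.54 (SE 0.19). Mcm6, of the replication helicase, measured 1818 and 346 in heart and 1000 and 75.6 in the arrays labelled liver, with spleen highest at 23611 and 28334 (-2.87, SE 0.36). For Aldh1a7 (-3.29, SE 0.26), Kmo (-2.76, SE 0.26), Pklr, the liver pyruvate kinase (-2.92, SE 0.28), Cebpa (-2.59, SE 0.25) and Dap (-2.63, SE 0.21) the highest array of each protocol was the one labelled brain, which carried liver transcripts. In an alternative added after seeing the data, leaving out the arrays labelled brain, 283 probe sets were lower in both and 250 were higher. Without the protocol term Cebpa was no longer called. Stbd1, a glycogen-binding protein, gave -2.87 (SE 0.31), and the 3 list members lower in both were the smooth muscle kinase Mylk (-2.10, SE 0.17), the potassium channel Kcnk5 (-2.02, SE 0.26) and the lysosomal enzyme Gusb, of the reference list (-1.51, SE 0.18). Here too the distance to the next label was small for some genes. By one-cycle, heart lay just under the lowest other label for Mcm6 (1818, kidney 2108), Mylk (2201, brain 2282) and Stbd1 (465, spleen 536). For St14 by BIIB, the array labelled liver gave 268 and the one labelled brain 320.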

How the data were processed

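The deposited values, used as the authors gave them, were MAS5 signal intensities per probe set (MAS5 named in the submitters' processing notes; its version and settings are not given in the sources used here). The array design holds 22690 probe sets, and the 2% trimmed mean of each of the 16 tissue arrays was between 2500.91 and 2501.65. No detection calls or scanner files were used. Here each array was scaled to 2501 and log2(signal + a pseudocount of 5% of that mean) was fitted with limma 3.58.1 in R 4.3.3 over the 16 tissue arrays (8 labels, each with 1 one-cycle and 1 BIIB array), with tissue and protocol as terms and 7 residual degrees of freedom. The 64 control probe sets were left out, as were probe sets with a mean signal under 500 over the 4 arrays (first comparison) or the 16 arrays (second). Calls needed a Benjamini-Hochberg adjusted p under 0.05 and 2-fold. The fit was tested on simulated data. The number of arrays limits the precision.

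Named genes are members of the lists and pairs and, outside them, the 15 (first comparison) or 10 (second) calls each way with the largest change, 1 gene symbol and arrays that do not overlap. A gene with several probe sets is given by its brightest, and 17 genes were called both ways by different probe sets. The members and lists were chosen with earlier results of these data known. Symbols were matched to RefSeq's GRCm38.p6 gene table, which changed none of the probe set symbols, and promoters come from RefSeq on the same build. Alternatives covered the protocol term, normalization, pseudocount, filter, variance trend, the 4 arrays alone, and each array left out.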

Additional observations from a re-analysis of the deposited data

How the results depend on the processing

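Dropping the protocol term, which leaves the labelling difference in the residual spread, gave 963 probe sets higher and 1297 lower in heart than in the arrays labelled liver. Of the 672 named genes, 152 then lost their call. Under the other alternatives the counts of the first comparison stayed within 1.5 times those reported, and with single arrays left out they ran from 1773 to 1969 higher and from 1868 to 2501 lower. No called difference changed direction. With single arrays left out, the second comparison gave 280 to 363 probe sets higher in both and 226 to 343 lower in both, since fewer arrays then had to lie beyond the other tissues. Without the BIIB heart array the numbers were 363 and 280, and without the one-cycle heart array 343 were lower in both. Leaving out the arrays labelled brain, chosen after seeing the data, gave 283 lower in both. No paired analysis was possible by replicate number, because the labels give the tissue arrays none. They are paired by protocol, so the fit with the protocol term is the paired analysis and the fit without it the unpaired one. Signal near background limits dim genes.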
